A study of Mus musculus with 4 samples.

Results

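Annexins are calcium-dependent proteins that bind negatively charged phospholipids of membranes, and some S100 proteins, which are small EF-hand proteins, bind the N-terminal tails of particular annexins. The group described here holds 10 genes, of 20714 gene symbols that both assays listed, and its members were matched by gene symbol: 8 annexins (Anxa1, Anxa2, Anxa3, Anxa4, Anxa5, Anxa6, Anxa7, and Anxa11) and 2 S100 genes (S100a10 and S100a11). All 10 members were listed in both assays, and 0 of them were listed more than once.

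The levels were measured in mouse blastocysts, the stage with an outer trophectoderm and an inner cell mass, by RNA-seq (mRNA) and by Ribo-seq, which sequences ribosome-protected fragments (RPF), with 2 libraries for each assay. The wild-type embryos came from C57BL/6J females of 4 weeks of age mated with PWK/PhJ males, whereas the strain label reads C57BL/6N x PWK. The females had been injected with the hormones PMSG and hCG to induce ovulation, and the embryos themselves were untreated. The embryos were taken at the 8-cell stage, grown to blastocysts in KSOM medium, and freed of the zona pellucida. All 4 libraries share this origin, the hormone injections, and the culture in vitro. The labels number the libraries of an assay but do not say that they came from separate batches of embryos, so the p-values measure the spread between these libraries, which may be technical.

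Values are FPKM, fragments scaled to the length of the gene and to the depth of the library, as deposited. The RPF values fell on steps worth 1 footprint, which implied totals of 535098 and 485528 footprints in replicates 1 and 2, and 84.8% and 85.1% of the low values checked lay within 0.1 of a whole footprint, where chance gives 20%. The RNA-seq steps implied 5442259 and 5159080 fragments, but only 59.5% and 56.6% of values were that near, so no mRNA fragment numbers are given. Summed over 5 trophectoderm markers, the mRNA level was 2999 and 2757 FPKM and the RPF level 5648 and 5236 FPKM, with all 5 markers at 10 FPKM or more in each library. The summed epiblast markers reached 141 and 57.7 FPKM of mRNA and 699 and 815 FPKM of RPF, and the 3 primitive endoderm markers 1.62 and 0.336 FPKM of mRNA and 64.7 and 60.1 FPKM of RPF. The summed oocyte, cumulus cell, and blood cell markers stayed between 0 and 1.92 FPKM in each library. In such bulk samples, fewer cells of a type and less RNA per cell cannot be told apart.

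The coding sequences are shown first, since their lengths bear on the scaling of the RPF values below. Their calcium-binding motifs are described only, and were not related to the levels. Annexin repeats bind calcium through a loop whose coding sequence can be recognized by the in-frame letters GGNNNNGGNACN, which were searched on the coding strand only. These letters occurred in all 8 annexins, in neither S100 gene, and in 12.8% of 22193 coding sequences of GENCODE vM1. Anxa6, which carries a doubled set of repeats, held 5 of them, Anxa3, Anxa4, Anxa5, Anxa7, and Anxa11 held 3 each, and Anxa1 and Anxa2 held 2 each. The first motif of each annexin is printed 5′ to 3′ with the motif in capitals and 9 coding bases on either side.
Anxa1: gccatgaagGGACTTGGAACAgatgaagac
Anxa2: tccatgaagGGCCTGGGGACTgacgaggac
Anxa3: gcgatcagaGGACTTGGGACTgacgagaaa
Anxa4: gccatgaaaGGCCTCGGTACTgatgaagat
Anxa5: gccatgaaaGGCTTGGGTACCgatgaggac
Anxa6: gccatctcgGGCGTTGGCACAgatgagaag
Anxa7: gcaatgaaaGGGTTTGGGACAgacgagcaa
Anxa11: gctatgaagGGCTTTGGAACGgatgagcag

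These 8 windows have their first and last bases on NCBIM37 (the assembly of mm9) at chr19:20456610-20457360 (- strand) for Anxa1, chr9:69327590-69330801 (+ strand) for Anxa2, chr5:97240141-97241874 (+ strand) for Anxa3, chr6:86707894-86710683 (- strand) for Anxa4, chr3:36362971-36364188 (- strand) for Anxa5, chr11:54822682-54824502 (- strand) for Anxa6, chr14:21283912-21284081 (- strand) for Anxa7, and chr14:26693502-26693709 (+ strand) for Anxa11. Each of these spans includes an intron. Of all 24 motif windows in the 8 annexins, 23 crossed an intron, and it lay in 1 of 2 places: directly before the motif in 17 windows and after base 7 of the motif in 6. The remaining window, the last motif of Anxa7, lay within 1 exon. The first motif had its intron inside the motif in Anxa3, Anxa4, Anxa5, Anxa7, and Anxa11, and directly before it in Anxa1, Anxa2, and Anxa6. Coding sequences of the annexins ran from 960 bases in Anxa4 and Anxa5 to 2022 bases in Anxa6.

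The 2 S100 genes are neighbours on chromosome 3, with S100a11 at chr3:93324410-93330209 and S100a10 at chr3:93359002-93368565, both on the + strand of NCBIM37 and 28.8 kb apart. Both have 3 exons, 2 of them coding, and their coding sequences hold 297 and 294 bases. The whole coding sequences are shown because their length sets how the RPF values were scaled. Capitals mark the 18 bases that open the second EF-hand loop, not the whole loop, or the bases aligned to them.
S100a11: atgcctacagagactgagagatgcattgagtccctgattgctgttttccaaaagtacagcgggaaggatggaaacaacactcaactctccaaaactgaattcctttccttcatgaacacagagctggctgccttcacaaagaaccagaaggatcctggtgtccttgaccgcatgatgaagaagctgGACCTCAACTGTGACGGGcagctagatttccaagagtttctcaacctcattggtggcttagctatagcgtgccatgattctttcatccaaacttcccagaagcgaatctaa
S100a10: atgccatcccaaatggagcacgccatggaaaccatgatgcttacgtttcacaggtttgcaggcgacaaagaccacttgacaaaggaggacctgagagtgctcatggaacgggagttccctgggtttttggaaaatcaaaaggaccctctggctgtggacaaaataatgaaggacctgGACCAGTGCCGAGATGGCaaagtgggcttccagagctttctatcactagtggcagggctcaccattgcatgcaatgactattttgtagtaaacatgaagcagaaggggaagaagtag

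The EF-hand loop was searched by its start only, in frame on the coding strand. The search took codons for aspartate, any residue, asparagine, any residue, aspartate, and glycine. This partial motif was found in S100a11 from codon 63, in the stretch GACCTCAACTGTGACGGG (chr3:93329959-93329976), and in 0.626% of the 22193 coding sequences. S100a10 had no match, and the bases of S100a10 aligned to that stretch, GACCAGTGCCGAGATGGC (chr3:93368210-93368227), shared 10 of the 18 bases with it. S100a10 is known as an S100 protein that no longer binds calcium. The 2 coding sequences were identical at 62.0% of 276 aligned bases.

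S100a11, S100a10, and Anxa2 were the members with the highest levels in both assays, and Anxa1 was the lowest. S100a11, which binds calcium and the tail of Anxa1, had an mRNA level of 1142 FPKM in replicate 1 and 1130 FPKM in replicate 2, and an RPF level of 1275 and 1352 FPKM. S100a10, the light chain that joins 2 Anxa2 molecules into a heterotetramer, had 342.8 and 384.1 FPKM of mRNA and 1557 and 1477 FPKM of RPF. Both genes stood at or above percentile 98.7 of all listed symbols in each library, by FPKM as deposited. Their RPF percentiles were not computed per full coding length, the scale given below.

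Anxa2, which at the cell surface binds plasminogen activators together with S100a10, had 254.2 and 266.1 FPKM of mRNA and 625.9 and 645.7 FPKM of RPF. Its replicates differed by 1.05-fold in mRNA and by 1.032-fold in RPF. Anxa1, a glucocorticoid-induced ligand of formyl peptide receptors, was listed at 0 in both RNA-seq libraries, at 2.23 FPKM of RPF in replicate 1, which is 1 footprint, and at 0 in replicate 2. A floor of 3 footprints was worth 7.38 FPKM there.

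Among the other annexins, Anxa6, which recruits a GTPase-activating protein of Ras to membranes, was the highest, with 59.9 and 49.3 FPKM of mRNA and 198.2 and 147.5 FPKM of RPF. Anxa7, also called synexin and known for granule fusion, had 19.8 and 24.5 FPKM of mRNA and 87.2 and 84.9 FPKM of RPF. Anxa4, an annexin of epithelia, had 7.68 and 6.30 FPKM of mRNA and 29.6 and 27.2 FPKM of RPF. For these 3 genes both RPF values were above both mRNA values, as they were for 72.5% of the 8327 genes with a mean of at least 1 FPKM in both assays.

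Anxa11, which tethers RNA granules to lysosomes and binds the calcium sensor Pdcd6, ranked lower in mRNA than in RPF. It stood at percentiles 85.8 and 81.3 of the 25039 symbols listed in RNA-seq and at 91.7 and 93.0 of the 20756 listed in Ribo-seq. Its mRNA level was 11.3 and 6.87 FPKM and its RPF level 112.8 and 140.0 FPKM, or 79.0 and 89.0 footprints. The lowest RPF value was 10.0 times the highest mRNA value. For the median of the 8327 genes with a mean of at least 1 FPKM in both assays, RPF lay 2.40-fold above mRNA on the log2(FPKM + 1) scale.

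Apart from Anxa1, the members that varied most between replicates were Anxa3 and Anxa5. Anxa3 had 32.1 and 11.5 FPKM of mRNA, a 2.78-fold difference, and 58.4 and 91.1 FPKM of RPF. Anxa5, which binds phosphatidylserine and is used to stain dying cells, had 10.99 and 4.67 FPKM of mRNA, a 2.35-fold difference, and 12.4 and 24.5 FPKM of RPF, from 5.001 and 9.002 footprints. The 95% exact Poisson intervals of these footprints were 1.62 to 11.7 and 4.12 to 17.1, which overlap and cover counting error only. In RNA-seq, the summed epiblast markers were also higher in replicate 1 (141 against 57.7 FPKM), as were Anxa3 and Anxa5. Nanog (69.8 and 28.1 FPKM) and Pou5f1 (70.1 and 28.6 FPKM) made up most of these sums. By smaller folds, Anxa4, Anxa6, Anxa11, and S100a11 were also higher in RNA-seq replicate 1. Of the trophectoderm markers, only Eomes was lower there, at 15.5 against 32.4 FPKM. In Ribo-seq, where Anxa3 and Anxa5 were higher in replicate 2, the epiblast markers did not move together, with Nanog at 168.7 and 278.4 FPKM, Pou5f1 at 475.2 and 496.3 FPKM, Sox2 at 37.1 and 35.4 FPKM, and Fgf4 at 18.4 and 5.08 FPKM. The part of cell type composition in this was not tested.

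**Figure D1:**
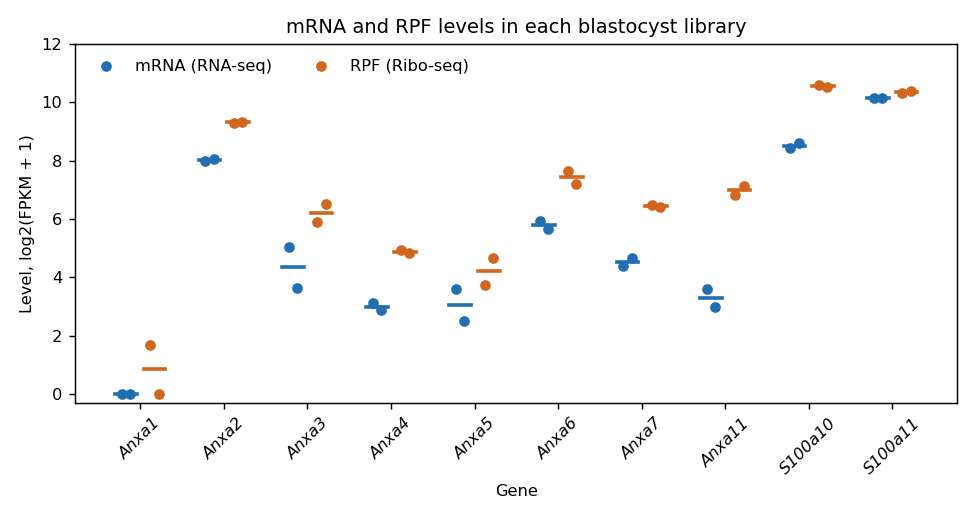
mRNA (blue) and RPF (orange) levels of the 10 members as log2(FPKM + 1) in each library; each point is 1 library and each bar is the mean of the 2 libraries of an assay. S100a11, S100a10, and Anxa2 sit highest in both assays, Anxa1 sits at or near 0, and Anxa11 shows the widest gap between the assays.

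By mean mRNA level the order was S100a11, S100a10, Anxa2, Anxa6, Anxa7, Anxa3, Anxa11, Anxa5, Anxa4, and Anxa1. The values of the 2 libraries overlapped between Anxa7 and Anxa3, between Anxa11 and Anxa5, and between Anxa5 and Anxa4, so these neighbours did not differ beyond their spread. By mean RPF level the order was S100a10, S100a11, Anxa2, Anxa6, Anxa11, Anxa7, Anxa3, Anxa4, Anxa5, and Anxa1. Only the values of Anxa7 and Anxa3 overlapped, but these ranges leave out counting error. In each library, the 95% exact Poisson intervals also overlapped between S100a10 and S100a11 and between Anxa4 and Anxa5. They overlapped only in replicate 1 between Anxa11 and Anxa7, Anxa3 and Anxa4, and Anxa5 and Anxa1, and only in replicate 2 between Anxa6 and Anxa11. The order of S100a10, S100a11, and Anxa2 also depends on the length scaling given below. By these means Anxa11 was 7th in mRNA and 5th in RPF. Anxa2 took 64.2% and 72.0% of the summed mRNA level of the 8 annexins and 55.6% of their summed RPF level in both replicates. Anxa11 took 2.84% and 1.86% of the mRNA sum and 10.0% and 12.1% of the RPF sum. Anxa6 took between 12.7% and 17.6% in all 4 libraries.

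**Figure D2:**
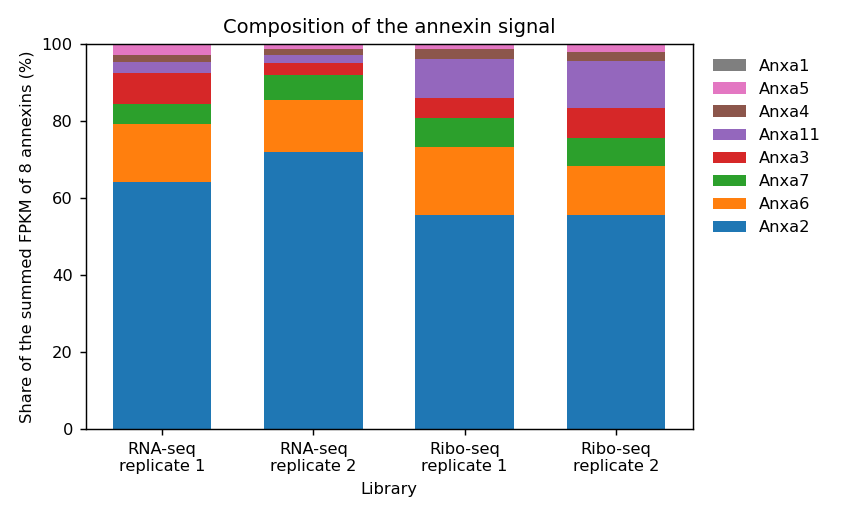
Share of each annexin in the summed FPKM of the 8 annexins (vertical axis, %) in each of the 4 libraries; each stacked bar adds up to the whole sum of 1 library. Anxa2 takes 64.2% and 72.0% in RNA-seq and 55.6% in both Ribo-seq libraries, and the share of Anxa11 is larger in both Ribo-seq libraries.

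Cufflinks divides by an effective length rather than the full one. The whole footprints above were obtained with fragments assumed to have a mean length of 200 bases and an SD of 80, far longer than a footprint. Under that scaling the RPF values of S100a10 and S100a11 are 3.09 and 3.03 times those per full coding length, against 1.25 times for Anxa2 and 1.11 times for Anxa6. Per full coding length, the RPF level was 501.2 and 517.0 FPKM for Anxa2, 504.4 and 478.5 FPKM for S100a10, and 420.3 and 445.8 FPKM for S100a11. The ratio of S100a10 to Anxa2 was 1.35 and 1.44 in mRNA. In RPF it was 2.49 and 2.29 as deposited, and 1.006 and 0.925 per full coding length. The 2 mRNA ratios, which were left as deposited, lay below both RPF ratios as deposited and above both per full coding length. The latter comparison sets unlike length scales side by side, so it does not rank the assays. An exact permutation test of 2 against 2 values cannot go below a two-sided p of 0.333. The RPF values of S100a10 came from 79.3 and 68.3 footprints and those of Anxa2 from 273.6 and 256.05. No ratio of S100a11 to Anxa1 is given, since Anxa1 was listed at 0 in 3 of the 4 libraries. How the scaling acts on the mRNA values of S100a10 and S100a11, whose transcripts have 685 and 511 bases, was not determined.

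**Figure D3:**
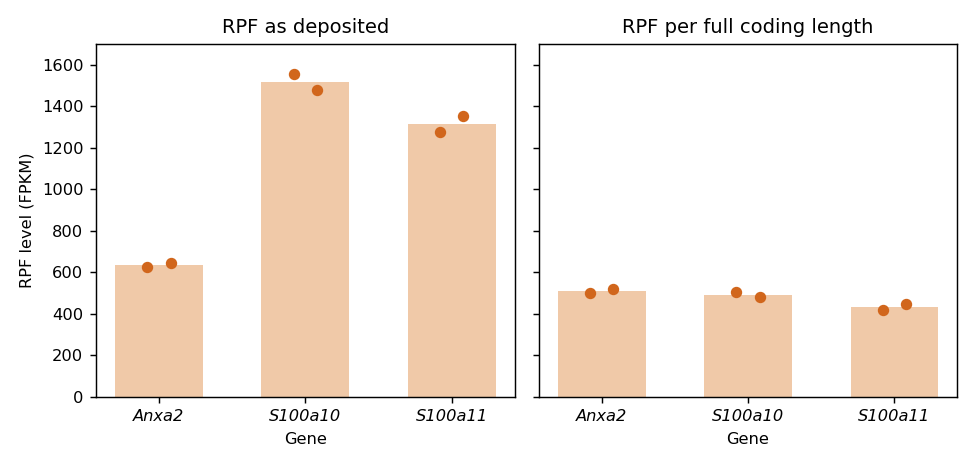
RPF level in FPKM (vertical axis) of Anxa2, S100a10, and S100a11, as deposited (left) and per full coding length (right); points are the 2 Ribo-seq libraries and bars are their mean. The values of S100a10 and S100a11 lie between 1275 and 1557 FPKM as deposited and between 420.3 and 504.4 FPKM per full coding length, where Anxa2 lies at 501.2 and 517.0 FPKM.

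RPF was then set against mRNA, to find members whose ribosome-protected signal was high or low for their mRNA level. The assays differ in library protocol (Smart-seq2 for mRNA, Ribo-lite for RPF) and in the region counted (whole transcripts or coding parts). The labels do not say whether both assays used the same embryos. A difference in translation therefore cannot be told apart from these differences between the assays. Both RPF values lay above both mRNA values for 9 of 10 members, all but Anxa1, and for 72.5% of the 8327 tested genes. Differences between the assays were therefore centred on the median of all tested genes, which was 1.26 on the log2(FPKM + 1) scale, and on this scale a fold change of low genes is understated. Among the 9 members that passed the limit of a mean of 1 FPKM in both assays, limma called 1 with RPF above mRNA, Anxa11, and 1 with RPF below mRNA, S100a11, at an adjusted p under 0.05 and a 2-fold difference. Over all tested genes, 13.6% were called with RPF above mRNA and 5.73% with RPF below mRNA. The count of members called is too small to set apart from this background. The median difference of the 9 tested members was 0.60, and the quartiles of all tested genes were -0.76 and 0.79. Anxa1 did not pass the limit.

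For Anxa11, RPF was above mRNA by 2.43 ± 0.32 (SE, log2, n = 2 libraries per assay; limma, adjusted p = 0.00695), or 5.38-fold after centring. The difference lay at percentile 96.3 of all tested genes and was called under every alternative run. For S100a11, RPF was below mRNA, by -1.05 ± 0.11 (limma, adjusted p = 0.00294), although its RPF values as deposited were above its mRNA values. The S100a11 call rests on the centring, since the difference was 0.21 without it (limma, adjusted p = 0.153). With RPF per full coding length, but mRNA left as deposited, the difference was -2.37 (limma, adjusted p = 1.57e-04). Without a filter on low values it was -0.63 and without the intensity trend limma gave an adjusted p of 0.0635, so it was not called there.

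Both called members have stretches that also occur elsewhere in the genome. Of the 28-base windows within 1 exon of the coding sequence, 88.1% in S100a11 and 39.2% in Anxa11 had at least 1 other exact place on NCBIM37, up to 7 and 3 places in all. For S100a10 the share was 3.75%, and for the other 7 annexins it was 0%. The study mapped to the transcriptome and kept reads with up to 20 places, so the values of S100a11 and Anxa11 are uncertain to the extent that reads were shared with such copies, which was not tested.

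The remaining members were not called. For S100a10 the difference was 0.80 ± 0.13 (limma, adjusted p = 0.0125), which is below the 2-fold limit. With RPF per full coding length, but mRNA left as deposited, it turned to -0.55 (limma, adjusted p = 0.0330). Anxa2, in contrast, lay at 0.03 ± 0.13 (limma, adjusted p = 0.911), close to the median gene. Anxa7 lay at 0.66 ± 0.24, Anxa4 at 0.62 ± 0.30, Anxa3 at 0.60 ± 0.52, Anxa6 at 0.37 ± 0.24, and Anxa5 at -0.10 ± 0.53, with limma adjusted p-values between 0.111 and 0.914. The SE of Anxa3 and Anxa5 were the largest among the members. A 2-fold difference lay within 2 SE of both estimates, and also of those of Anxa4, Anxa7, and S100a10.

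**Figure D4:**
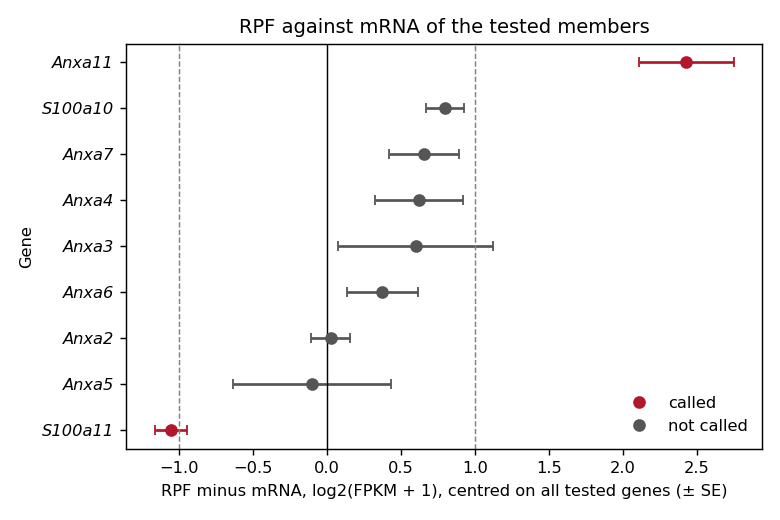
RPF minus mRNA on the log2(FPKM + 1) scale, centred on the median of all tested genes (horizontal axis), for the 9 tested members; points are limma estimates, bars are ± 1 SE, dashed lines mark a 2-fold difference, and red marks called members. Anxa11 lies at 2.43 and S100a11 at -1.05, and the other members lie between -0.10 and 0.80.

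The rest of the annexin family was also read. Of the 4 other annexins listed, Anxa9, which lacks working calcium sites, had 30.1 and 17.5 FPKM of mRNA and 53.7 and 51.8 FPKM of RPF. Anxa8 had 4.23 and 3.67 FPKM of mRNA and 46.6 and 23.8 FPKM of RPF, from 19.4 and 9.01 footprints. Its difference of 1.54 ± 0.42 missed the threshold (limma, adjusted p = 0.0559). Anxa8 was called with the replicate number as a block (limma, adjusted p = 0.0416), with a pseudocount of 0.1 (0.0493), without the filter (0.0410), without centring (0.00381), and without Ribo-seq replicate 2 (0.00543), where the difference was 1.85. Without Ribo-seq replicate 1 it was 0.98 (limma, adjusted p = 0.0701). The other 2 annexins were listed at 0 in all 4 libraries. With all 12 annexins in the sum, Anxa2 still took between 51.0% and 68.1%.

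Of 14 other S100 genes, 5 were tested and 1, S100a6, was called with RPF above mRNA, a count too small to set apart from the 13.6% of all tested genes called in that direction. S100a6, which binds Anxa11 among other annexins, had 21.2 and 32.8 FPKM of mRNA and 300.4 and 331.0 FPKM of RPF, from 12.04 footprints in each library. Its difference was 2.27 ± 0.27 (limma, adjusted p = 0.00491) but 0.71 per full coding length (limma, adjusted p = 0.122). S100a13 had 37.0 and 15.4 FPKM of mRNA and 38.3 and 84.5 FPKM of RPF, from 2.01 and 4.02 footprints. S100a1 and S100a14 had RPF in replicate 2 only, at 70.97 and 54.3 FPKM, each from 3.01 footprints. S100a9 had 67.1 and 29.6 FPKM of RPF, from 5.02 and 2.01 footprints, with mRNA at 0 and 1.11 FPKM. A floor of 3 footprints was worth 44.2 FPKM for S100a9 in replicate 2. The highest of the 14 reached 37.0 and 32.8 FPKM of mRNA and 300.4 and 331.0 FPKM of RPF, below both S100a10 and S100a11 in each library.

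Of 18 genes for annexin and S100 binding partners and membrane repair, 13 were tested, 4 were called with RPF above mRNA, 0 with RPF below, and 9 were not called, against 13.6% and 5.73% of all tested genes called above and below. Their median difference was 0.33, where the median of all tested genes is 0 by the centring. Chmp4b, a subunit of the ESCRT-III complex that seals membranes, had the largest difference of the list, with 10.6 and 12.5 FPKM of mRNA and 414.35 and 332.1 FPKM of RPF, or 3.63 ± 0.23 (limma, adjusted p = 0.000746). The calpain genes Capns1, the small regulatory subunit, and Capn1, a catalytic subunit, followed with 2.503 ± 0.19 and 1.78 ± 0.28 (limma, adjusted p = 0.00132 and 0.0126). Sri, which encodes the EF-hand protein sorcin, a partner of Anxa7, lay at 1.64 ± 0.17 (limma, adjusted p = 0.00348). All 4 were also called per full coding length, and Capn1 was not called without either RNA-seq library (limma, adjusted p = 0.0871 and 0.0959).

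Pdcd6, the calcium sensor that binds Anxa7 and Anxa11, had 140.4 and 157.7 FPKM of mRNA and 260.2 and 224.9 FPKM of RPF, and it was not called at -0.56 ± 0.18 (limma, adjusted p = 0.0787). With quantile normalization it was called below mRNA, at -1.10 (limma, adjusted p = 0.0107), per full coding length it lay at -0.91 (limma, adjusted p = 0.0171), and without centring it turned to 0.70. Pdcd6ip, an ESCRT adaptor, had 48.1 and 49.6 FPKM of RPF. Tsg101, of ESCRT-I, had 59.5 and 50.2 FPKM, and Capn2 had 70.8 and 46.6 FPKM. Ahnak, a large scaffold protein that binds the complex of Anxa2 and S100a10, had 22.6 and 15.3 FPKM of mRNA but 58.8 and 16.5 FPKM of RPF, so that 1 RPF value lay above both mRNA values and the other between them. The membrane repair gene Myof had 17.2 and 15.7 FPKM of RPF, and Rasa1, which encodes the Ras regulator that binds Anxa6, had 16.03 and 12.01 FPKM.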

How the data were processed

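The members, gene lists, and tests were chosen with earlier results of these data known. The authors deposited FPKM for each library: reads were trimmed with Trim Galore 0.4.2 (RNA-seq) or cutadapt 1.14 (Ribo-seq), rRNA reads were discarded with Bowtie2 2.2.2 in Ribo-seq, and the rest were mapped to the mm9 transcriptome with STAR 2.5.3a and quantified with Cufflinks 2.2.1, using whole transcripts (RNA-seq) or only their coding parts (Ribo-seq). The number of embryos per library was not given in the sources used here. For repeated symbols the highest value was kept.

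RPF and mRNA were compared with limma 3.58.1 in R 4.3.3 on log2(FPKM + 1), with an intensity trend, over the 8327 genes with a mean of at least 1 FPKM in both assays. Differences were centred on their median, the Benjamini-Hochberg adjustment covered all tested genes, and a gene was called at an adjusted p under 0.05 and a 2-fold difference. Named genes were the 10 members and, from the other lists, those with a mean of at least 10 FPKM in either assay.

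Footprints were read from the steps of low values with the effective lengths that Cufflinks would use for fragments of 200 ± 80 bases (SD), between 42 and 440 bases. These settings were inferred from the values, and the intervals are exact Poisson intervals at 95%. Coordinates, coding sequences, and lengths came from GENCODE vM1 on NCBIM37, whereas the authors used the UCSC annotation of mm9. Sequence features were read from coding DNA, and protein sequences were not used. Scripts were written in Python 3.11.15 (Biopython 1.88 for global alignments, matplotlib 3.10.9, numba 0.67.0, scipy 1.17.1). Simulated data were used to test the limma fit and the depth estimate. Alternatives changed the pseudocount, filter, centring, trend, length scaling of RPF, treatment of repeated symbols, or the libraries used. In the alternative per full coding length, the mRNA values stayed as deposited.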

Additional observations from a re-analysis of the deposited data

How the results depend on the processing

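Over all tested genes, 1134 were called with RPF above mRNA and 477 below. These counts were 1868 and 1293 with no filter on low values and 4144 and 66 with no centring. With quantile normalization 924 were below, and with no intensity trend 270 were below. Leaving out each library in turn gave 513 to 1422 above and 88 to 1302 below, with 525 and 98 without RNA-seq replicate 1, 513 and 88 without RNA-seq replicate 2, 1422 and 1302 without Ribo-seq replicate 1, and 1399 and 1275 without Ribo-seq replicate 2. In these fits the lone library was assumed to vary like the pair of the other assay. Among members, 4 were above and 0 below without the filter, 7 and 0 without centring, and 0 below without the trend, and leaving out a library kept 1 and 1. The S100a10 to Anxa2 ratio in RPF was 2.39 as deposited, 0.966 per full coding length, and 2.29 to 2.49 with either library left out.

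The differences of 6 members changed sign under at least 1 setting. Anxa2 (0.03) was at -0.11 with a pseudocount of 0.1, -0.039 with a minimum of 5 FPKM, -0.61 with quantile normalization (limma, adjusted p = 0.0282), -0.015 per full coding length, and -0.15 to 0.053 with a library left out. Anxa5 (-0.10) was at 0.33 without the filter, 1.16 without centring, and -0.72 to 0.47 with a library left out. Anxa6 (0.37) was at -0.11 with quantile normalization, Anxa3 (0.60) at -0.11 to 1.32 with a library left out, S100a10 (0.80) at -0.55 per full coding length, and S100a11 (-1.05) at 0.21 without centring. The cause was not tested, apart from what each setting itself changes. With 2 libraries an assay, leaving out 1 says nothing of the stability of a level, and no member symbol repeats.

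The replicate number as a block gave 1175 calls above and 524 below, sharing 1516 of 1611 calls and both member calls. The difference between replicates 1 and 2 correlated at 0.00994 across genes between the assays. This value cannot tell whether libraries of the same number came from the same embryos, since noise of each library would also lower it. Depth limits Anxa1, Anxa5, and the S100 genes with few footprints.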
